A study of Mus musculus with 6 samples.

Results

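Potassium channels let potassium ions leave or enter a cell along their gradient and so set its resting voltage and end its electrical spikes. A channel is built from pore subunits, which open with voltage, calcium, or in the case of leak channels with little gating at all, and from auxiliary subunits that change how the pore opens. Merkel cells are excitable touch receptors of the epidermis that fire calcium-dependent action potentials, and keratinocytes and immune cells of the skin use potassium channels to set their voltage during calcium entry. The genes described here are the 95 rows of the deposited table of 54532 genes whose name starts with Kcn, chosen by name alone, without 4 antisense transcripts (Kcnab3os, Kcnd3os, Kcnmb4os1 and Kcnmb4os2) whose names contain "os". They comprise 30 voltage-gated pores, 10 modifier subunits, 8 pores of the calcium-activated family, 15 inward rectifiers, 14 two-pore-domain leak channels, 16 auxiliary subunits, 1 regulator of assembly (Kcnrg) and 1 noncoding RNA (Kcnq1ot1). Kcnq1ot1 carries the prefix but makes no channel.

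RNA was measured by Smart-seq2, which amplifies full-length cDNA from little input, in 6 libraries of epidermal cells from the dorsal skin of male and female C57BL/6 mice aged 4 weeks. The 3 NCAM-enriched libraries came from cells captured on beads against polysialylated NCAM, a surface protein of Merkel cells, then sorted as NCAM-positive and DAPI-negative. By the authors' methods, the 3 bulk skin libraries came from epidermal cells sorted only as DAPI-negative, so they can include Merkel cells. Their labels read total skin, and they also held fibroblast and red blood cell markers, given below. Each library held 500 sorted events, and no source used here states that the libraries of a group came from separate animals, so every p-value below measures the spread between these libraries, which may be technical.

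Totals ran from 1343190 counts in NCAM-enriched library 2 to 4481830 in bulk skin library 2, and 1 count corresponded to 0.216 to 0.773 CPM (counts per 1000000 counts of TMM-scaled library size). All 10 Merkel cell markers listed were detected, with a summed level of 467 to 1700 CPM in the NCAM-enriched libraries and 142 to 181 CPM in bulk skin. Markers of other cells were high in the NCAM-enriched libraries too: 10 suprabasal keratinocyte markers summed to 14300 to 37200 CPM there and 1570 to 1750 CPM in bulk skin. NCAM-enriched library 2 stood apart in 6 fibroblast markers, which summed to 33000 CPM there, 41.7 and 363 CPM in the other NCAM-enriched libraries and 10400 to 18200 CPM in bulk skin. In such mixtures, fewer cells of a type and less RNA per cell cannot be told apart.

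Most pore subunits share a short stretch of protein, glycine-tyrosine-glycine, that lines the narrowest part of the channel and selects potassium over sodium. Below are the 45 bases of coding sequence around those codons for 5 pores and a modifier whose levels are described later. They are shown because genes with levels on opposite sides of the comparison match the same codon motif. The capitals mark codons matching GGNTANGGN in reading frame, and the sequences are from the longest complete coding sequence of each gene in GENCODE M21 (GRCm38), written 5′ to 3′ on the coding strand.

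Kcnv1: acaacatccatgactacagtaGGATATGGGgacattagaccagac
Kcnma1: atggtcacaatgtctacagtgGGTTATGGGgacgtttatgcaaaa
Kcnn3: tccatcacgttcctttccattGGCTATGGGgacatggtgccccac
Kcnn4: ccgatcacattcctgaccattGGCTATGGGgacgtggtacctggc
Kcnk7: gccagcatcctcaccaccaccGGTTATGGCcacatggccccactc
Kcnk1: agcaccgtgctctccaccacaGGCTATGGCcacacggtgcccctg

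In Kcnv1 the motif starts at codon 397 of 503 and in Kcnk7 at codon 107 of 343. In the printed windows the codon after the motif is gac in Kcnv1, Kcnma1, Kcnn3 and Kcnn4, and cac in both leak channels. The motif was in frame in 62 of the 77 pore and modifier genes (80.5%), in 0 of the 17 genes for auxiliary subunits or the regulator, and in 6.1% of 21617 protein-coding genes. The 15 pore genes without it included all 3 genes of the Slo2 and Slo3 family, 7 of the 8 ether-a-go-go genes and, among the inward rectifiers, Kcnj8 and Kcnj11. The site in the remaining ether-a-go-go gene, Kcnh4, started at codon 54, near the start of the protein. A match describes these letters only, and a gene without one is not thereby shown to lack a filter.

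Of the 95 genes, 52 were detected, meaning at least 5 counts in at least 2 of the 6 libraries. That is 54.7% of them, against 31.4% of all genes in the table. The table includes noncoding genes, whereas every Kcn gene but Kcnq1ot1 codes for protein. The share over protein-coding genes alone was not computed, so nothing is read from the difference. A further 24 had some count below that level and 19 had no count in any library, among them Kcnj10, Kcnj11, Kcnk4 and Kcnk9. At least 2 of the 3 NCAM-enriched libraries held 5 counts of 26 genes, and at least 2 of the 3 bulk skin libraries of 31, with 17 genes in both sets. Among the 9 that did so in the NCAM-enriched group and not in bulk skin were Kcnd2, Kcng4, Kcnh8, Kcnk12, Kcnmb2, Kcnq3, Kcnt1 and Kcnu1. The 14 that did so in bulk skin and not in the NCAM-enriched group were Kcna3, Kcnab3, Kcnc4, Kcne3, Kcnh1, Kcnj15, Kcnj16, Kcnj8, Kcnk5, Kcnmb1, Kcnn3, Kcnq1, Kcnq5 and Kcnt2. Of these, Kcnc4 (18.7 against 2.28 CPM), Kcnab3 (3.64 against 2.78) and Kcnj16 (4.61 against 3.76) had the higher mean in the NCAM-enriched group, and the rest in bulk skin. Over all genes, 11565 to 14003 reached 5 counts in an NCAM-enriched library and 14417 to 15638 in a bulk skin library. The split by group was not computed over all genes, so nothing is read from it. Only 6 genes had at least 5 counts in all 6 libraries: Kcnip3, Kcnma1, Kcnmb4, Kcnk1, Kcnk6 and Kcnq1ot1.

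**Figure D1:**
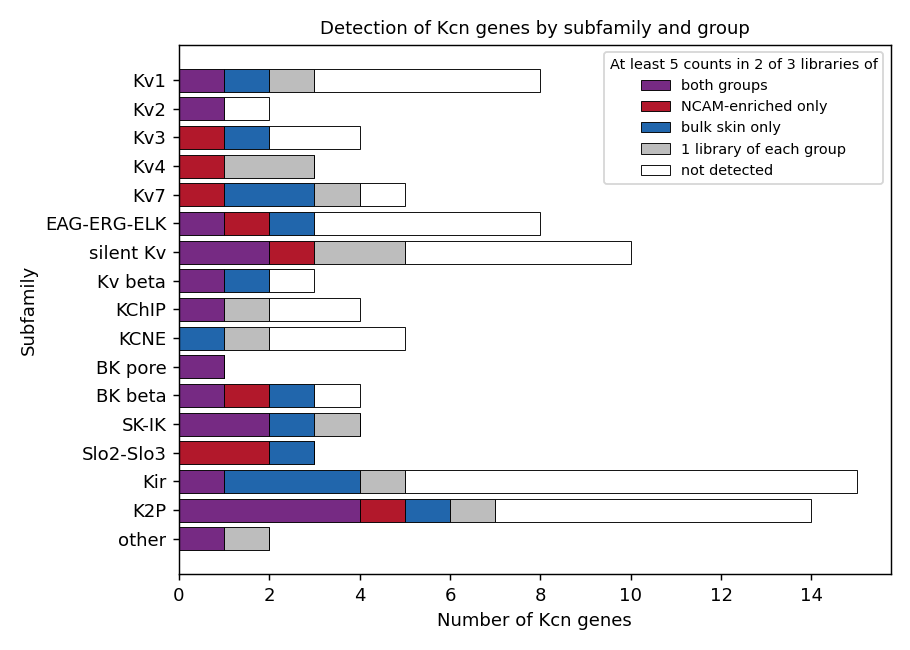
Number of Kcn genes (horizontal axis) in each subfamily (vertical axis), split by the group in which at least 2 of 3 libraries held at least 5 counts. All 4 SK and IK genes, the BK pore and all 3 Slo2 and Slo3 genes were detected, while 10 of 15 inward rectifiers were not.

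By subfamily, detection was complete for the calcium-activated family (8 of 8 pores, sodium-activated relatives included) and for the rapidly inactivating Kv4 pores (3 of 3). Among the Kv4 pores, however, Kcnd1 and Kcnd3 were near the threshold. Kcnd1 had 6, 0 and 1 counts in the NCAM-enriched libraries and 1, 12 and 0 in bulk skin, and Kcnd3 had 9, 0 and 0 against 0, 5 and 0. Detection was lowest for the inward rectifiers, with 5 of 15. Of the leak channels 7 of 14 were detected, of the silent Kv modifiers 5 of 10, of the Shaker-type Kv1 pores 3 of 8 and of the ether-a-go-go pores 3 of 8. NCAM-enriched library 2, the shallowest, held at least 5 counts of 15 of the genes, against 34 and 36 in the other NCAM-enriched libraries and 30 to 43 in bulk skin. With every library thinned to 1343190 counts, library 2 held 15 and the other 5 libraries 22 to 34.

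Counts of many of these genes were uneven between libraries of a group. In the NCAM-enriched group the library with the highest CPM supplied a median of 87.4% of a detected Kcn gene's summed level, against 58.5% over all detected genes. In bulk skin the medians were 59.1% and 45.6%. That library supplied over 90% for 25 of 51 Kcn genes in the NCAM-enriched group and for 12 of 51 in bulk skin. The Kcn genes also had fewer counts, a median of 88 over all libraries against 368 for all detected genes. NCAM-enriched library 2 had no count for 57.7% of the detected Kcn genes and for 26.1% of all detected genes.

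**Figure D2:**
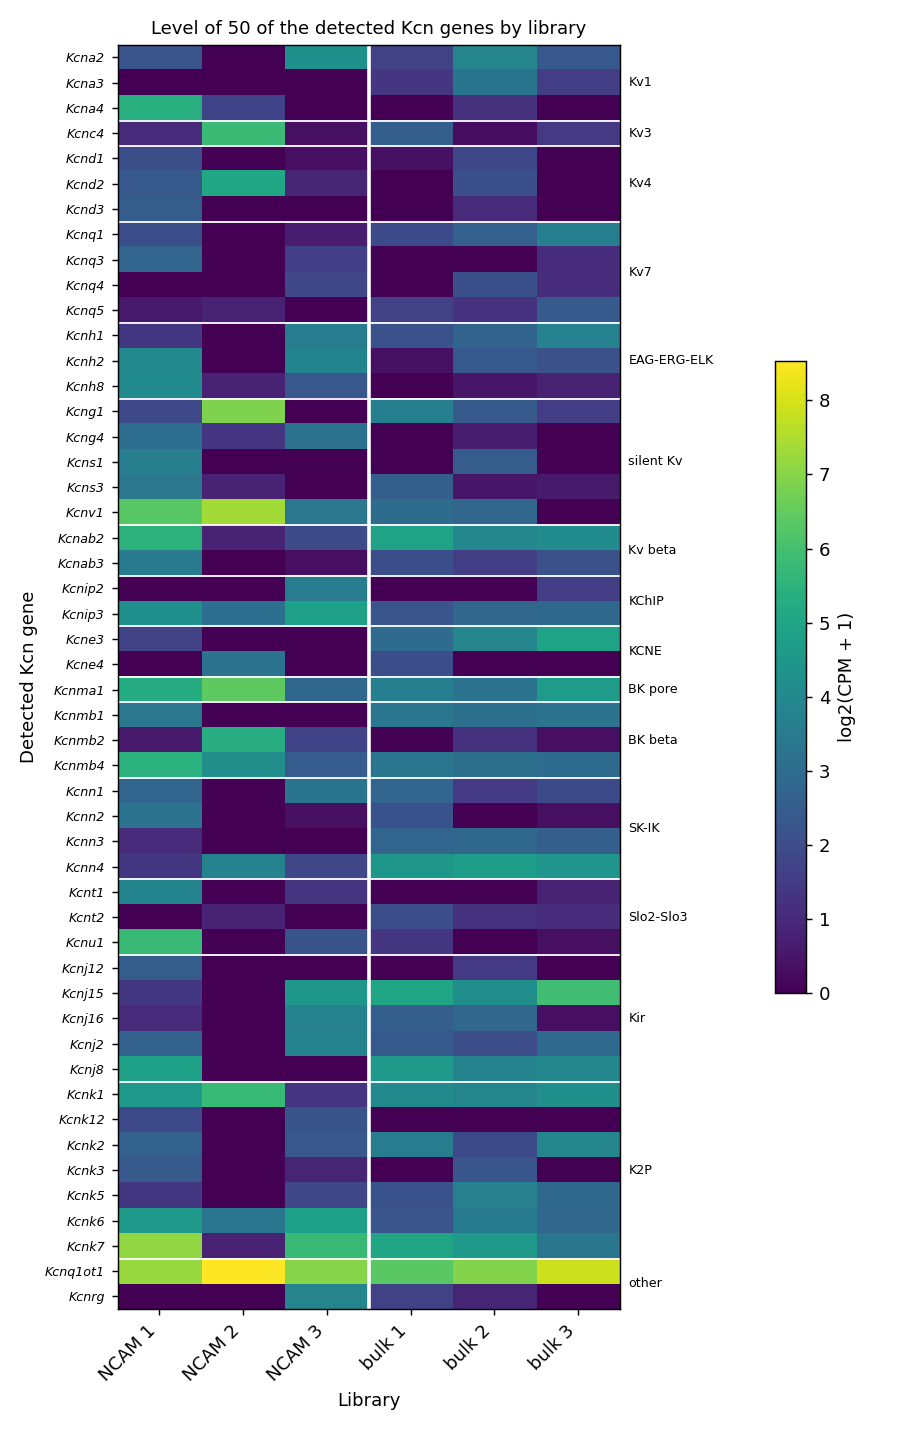
Level of 50 of the 52 detected Kcn genes (rows, grouped by subfamily) in each library (columns), as log2(CPM + 1). The NCAM-enriched libraries differ from one another, with library 2 dark for many genes and bright for Kcng1, Kcnv1 and Kcnq1ot1.

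The comparison asked which potassium channel genes differ between NCAM-selected cells and the unselected cells of bulk skin. Enough counts for the test were present for 29 of the 95 genes, among 13157 genes tested. The edgeR quasi-likelihood test with Benjamini-Hochberg adjustment over all genes called 0 of the 29. Over all genes the same test called 1.04% higher and 1.55% lower after NCAM selection. At an unadjusted edgeR p under 0.05 there were 4 Kcn genes, 2 on the higher side with Kcnv1 among them and Kcne3 and Kcnn3 on the lower, which is 13.8% of the 29 against 18.9% of all genes tested. DESeq2 called 2 higher (6.90%), Kcnv1 among them, and 1 lower (3.45%), Kcne3, against 5.02% of all genes higher and 7.05% lower. The limma-voom test called 1 higher and 1 lower (3.45% each), the latter Kcne3, against 2.67% and 6.45% of all genes. The libraries of the 2 groups did not overlap for 7 of the 29. Above bulk skin in every NCAM-enriched library were 3 genes, Kcnv1 and Kcnip3 among them (10.3%, against 11.1% of all genes tested). Kcne3, Kcnn3, Kcnn4 and Kcnk5 were below (13.8%, against 19.3%). The shares called higher by DESeq2 and limma-voom were slightly above those of all genes and the other shares below, and with so few genes nothing is read from them. The median log2 fold change was 0.42 over the 29 and -0.07 over all genes, with 18 of the 29 above 0 (62.1%, against 47.7% of all genes) and 11 below. The standard errors were wide, with a median of 1.38 on the log2 scale against 0.81 over all genes tested.

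**Figure D3:**
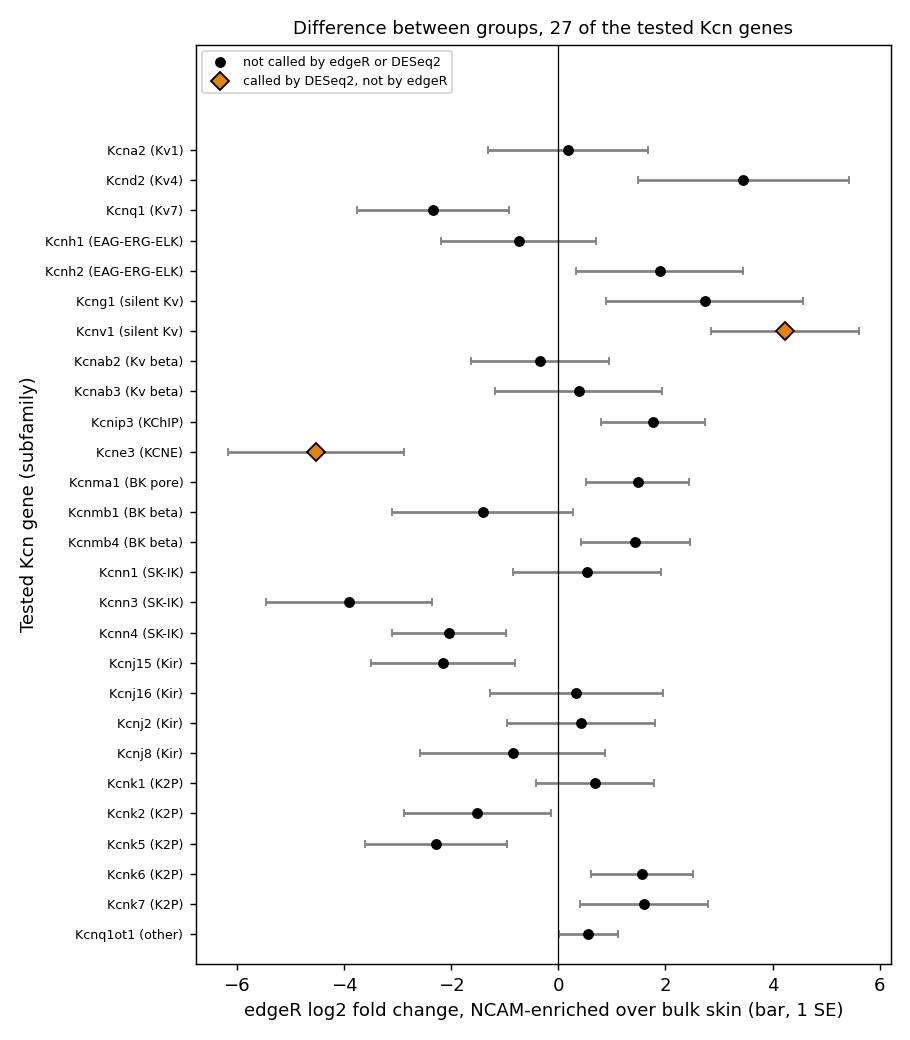
edgeR log2 fold change, NCAM-enriched over bulk skin (horizontal axis; bars are 1 SE), for 27 of the 29 tested Kcn genes (vertical axis, subfamily in brackets). Kcnv1 at 4.23 lies farthest to the right of the genes drawn and Kcne3 at -4.52 farthest to the left, and both were called by DESeq2 but not by edgeR.

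Among the voltage-gated pores and their modifiers, the values of a silent subunit stood out on the NCAM side. Kcnv1 (chromosome 15, 45106284 to 45114920, minus strand, GRCm38) encodes Kv8.1, which forms no channel alone and joins Kv2 pores, changing their current. It had 79.2, 163 and 9.36 CPM in the NCAM-enriched libraries and 7.14, 6.05 and 0 CPM in bulk skin. The groups did not overlap, but NCAM-enriched library 3 was close to the highest bulk skin library. The means were 83.9 ± 76.9 CPM (SD, n = 3) and 4.40 ± 3.85 CPM. The log2 fold change was 4.23 ± 1.38 (SE, as after every log2 fold change below), with an adjusted p of 0.133 by edgeR, 0.00908 by DESeq2 and 0.192 by limma-voom. Without NCAM-enriched library 3, edgeR called Kcnv1 (adjusted p = 0.0461), in a fit that called 1099 genes higher, against 137 with all libraries. Library 3 was the lowest of the NCAM-enriched libraries in Kcnv1 and also in the summed Merkel cell markers (467 against 1670 and 1700 CPM). It was the lowest too in the fibroblast markers (41.7 against 363 and 33000 CPM), the skeletal muscle markers (11.4 against 269 and 162 CPM) and 6 melanocyte markers (15.6 against 44.6 and 142 CPM). The other marker lists were lowest in library 1 or 2. Suprabasal keratinocyte markers were higher in the NCAM-enriched libraries as well, as were 6 skeletal muscle markers (11.4 to 269 CPM against 0 to 3.84 CPM, with 2 of 6 detected and Ckm at 0 in all NCAM-enriched libraries). The part of each cell type in these levels was not tested.

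Kcng1, another silent subunit of Kv2 channels, had 118 CPM in NCAM-enriched library 2 and 2.66 and 0 CPM in the other NCAM-enriched libraries, against 11.8, 4.32 and 1.92 CPM in bulk skin. Its log2 fold change of 2.73 ± 1.84 (edgeR adjusted p = 0.483) was set by that library, and it turned to -2.26 without it. Library 2, high in fibroblast markers, also held the highest values of Kcnc4 (54.9 CPM, against 1.06 and 0.284 in the other NCAM-enriched libraries), Kcnmb2 (38.6 against 0.531 and 2.27) and Kcnd2 (33.2 against 4.25 and 0.851). Bulk skin held 10400 to 18200 CPM of the fibroblast markers, with means of 2.28 CPM for Kcnc4 and 0.524 CPM for Kcnmb2. Among the NCAM-enriched libraries, library 2 was also the highest in Merkel cell (1700 CPM), T and NK cell (238 CPM) and melanocyte markers (142 CPM). The other marker lists were highest in library 1 or 3. Whether the levels of these channel genes follow from the cells in library 2 was not tested. Kcnd2, the A-type pore Kv4.2, had 0, 3.24 and 0 CPM in bulk skin, and its log2 fold change of 3.45 ± 1.97 was not called (edgeR adjusted p = 0.400).

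Other voltage-gated pores were low or scattered. Kcna4, a rapidly inactivating Kv1 pore, had 75, 3 and 0 counts in the NCAM-enriched libraries and 0, 6 and 0 in bulk skin, and was not tested because too few libraries held counts. Kcnh2, the ERG1 pore best known from heart, had 15.4, 0 and 13.3 CPM against 0.310, 4.11 and 3.29 CPM, with a log2 fold change of 1.89 ± 1.56. Kcng4, a silent Kv2 modifier chosen for mention after its values were seen, held 14, 2 and 29 counts in the NCAM-enriched libraries and 0, 3 and 0 in bulk skin. The pooled ratio was 25.7 (95% counting interval 8.26 to 129), an interval that covers counting error only. The 3 bulk skin counts were all in library 2, and without it the gene was at least 15.4-fold higher in the NCAM-enriched group. On the bulk side, Kcnq1, the Kv7.1 pore of epithelia and heart, had 3.19, 0 and 0.568 CPM in the NCAM-enriched libraries and 2.79, 5.19 and 11.5 CPM in bulk skin. The log2 fold change was -2.33 ± 1.42 (edgeR adjusted p = 0.434).

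Kcna3 encodes Kv1.3, the voltage-gated pore that holds the membrane voltage of T cells. It had 0 counts in all 3 NCAM-enriched libraries and 5, 42 and 7 counts in bulk skin. Taking 3 counts over the group as the most that 0 allows, it was at least 10.5-fold lower in the NCAM-enriched group. Bulk skin library 2 held 42 of the 54 counts, and without it the bound was 3.90-fold. Without NCAM-enriched library 3, the deepest of its group, it was 4.97-fold. It fell outside the test and outside the rule for named genes, and was chosen after its values were seen. The summed T and NK cell markers reached 42.0 to 238 CPM after NCAM selection and 4310 to 4630 CPM without it, with 9 of 10 detected and Cd3d, Trac and Gzmb at 0 in every NCAM-enriched library. Their part in the Kcna3 values was not tested.

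The auxiliary subunits of the voltage-gated pores had levels on both sides. Kcne3, a single-span subunit that joins Kv7.1 and holds it open in epithelia, lies on chromosome 7 from 100176502 to 100184869. It had 2.13, 0 and 0 CPM in the NCAM-enriched libraries and 6.83, 13.8 and 29.6 CPM in bulk skin, so that every bulk skin library was higher. The log2 fold change was -4.52 ± 1.65, with an adjusted p of 0.178 by edgeR, 0.0303 by DESeq2 and 0.0343 by limma-voom. With 4 counts in all in the NCAM-enriched group, all of them in library 1, the fitted size depended on that library and reached -8.77 without it. The pore partner Kcnq1 had its highest level in the same bulk skin library as Kcne3. Langerhans and myeloid markers, like the T cell list, were lower in the NCAM-enriched group (189 to 796 CPM against 12500 to 20600 CPM, 10 of 10 detected and none at 0 in all libraries), and their part in the Kcne3 values was not tested.

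Kcnip3 encodes a calcium-binding subunit of Kv4 pores that also acts as the transcriptional repressor DREAM. It had 18.6, 7.73 and 28.1 CPM in the NCAM-enriched libraries and 3.73, 6.05 and 6.31 CPM in bulk skin. The groups did not overlap, the difference was 1.76 ± 0.97 on the log2 scale, and it was not called by edgeR (adjusted p = 0.382) or DESeq2 (adjusted p = 0.189). Kcnab2, a cytoplasmic beta subunit of Kv1 channels, had 43.6, 0.773 and 2.84 CPM against 29.2, 14.3 and 16.2 CPM. Its log2 fold change was -0.34 ± 1.28 and moved to -3.34 without NCAM-enriched library 1, the library that held most of its counts.

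The calcium-activated channels differed by type. Kcnma1, the pore of the large-conductance BK channel, which opens with calcium and voltage together, had 38.3, 84.2 and 6.24 CPM in the NCAM-enriched libraries and 11.8, 8.43 and 25.5 CPM in bulk skin. The groups overlapped and the log2 fold change was 1.48 ± 0.96 (edgeR adjusted p = 0.463). Kcnmb4, the beta subunit of BK that is typical of neurons, had 43.0, 17.8 and 4.54 CPM against 9.31, 7.78 and 6.85 CPM. Its log2 fold change was 1.44 ± 1.01 (edgeR adjusted p = 0.503), and 2 antisense transcripts overlap 31.5% of its exonic bases. Both genes were lowest in library 3 among the NCAM-enriched libraries. Kcnmb1, the beta subunit of BK in smooth muscle, had 9.56, 0 and 0 CPM against 9.31, 7.78 and 8.50 CPM, an even level in bulk skin and a single positive library in the NCAM-enriched group.

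The small and intermediate conductance channels, opened by calcium through calmodulin, were not uniform. Kcnn4 and Kcnn3 had their higher values in bulk skin, while Kcnn1 and Kcnn2, named after their values were seen, averaged 4.88 ± 4.48 and 2.93 ± 4.83 CPM in NCAM-enriched libraries against 3.46 ± 2.17 and 1.23 ± 1.90 CPM (SD, n = 3) with overlap. Kcnn4, the intermediate channel of T cells, red cells and epithelia, had 1.59, 13.1 and 2.55 CPM in the NCAM-enriched libraries and 22.0, 26.8 and 20.8 CPM in bulk skin. The groups did not overlap, and the bulk skin libraries were close to one another. The log2 fold change was -2.04 ± 1.06 (edgeR adjusted p = 0.343, DESeq2 adjusted p = 0.190), and -3.45 with an edgeR adjusted p of 0.0524 when NCAM-enriched library 2 was left out. Kcnn3, a small-conductance channel, had 2, 0 and 0 counts in the NCAM-enriched libraries against 19, 29 and 18 in the bulk skin libraries, a pooled ratio of 19.2 (95% counting interval 5.12 to 162). The ratio was 9.12 without NCAM-enriched library 3, and without library 1, which held both counts, Kcnn3 was at least 9.22-fold lower. Its edgeR adjusted p was 0.213 and that of DESeq2 0.178. T and NK cell, myeloid and red blood cell markers were lower in the NCAM-enriched group beside these genes, the last at 3.09 to 23.9 CPM against 747 to 1180 CPM with 5 of 5 detected and Hba-a2 and Hbb-bt at 0 in every NCAM-enriched library. The share of those cells in the Kcnn4 and Kcnn3 levels was not tested.

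The relatives of BK that respond to sodium or to alkaline pH had few counts. Kcnu1, the Slo3 pore known from sperm, had 100, 0 and 13 counts in the NCAM-enriched libraries and 5, 0 and 1 in bulk skin. It and the other 2 genes of this family did not enter the test. Since library 1 gave 93.5% of the summed CPM of Kcnu1 in its group, this is the level of a single library.

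**Figure D4:**
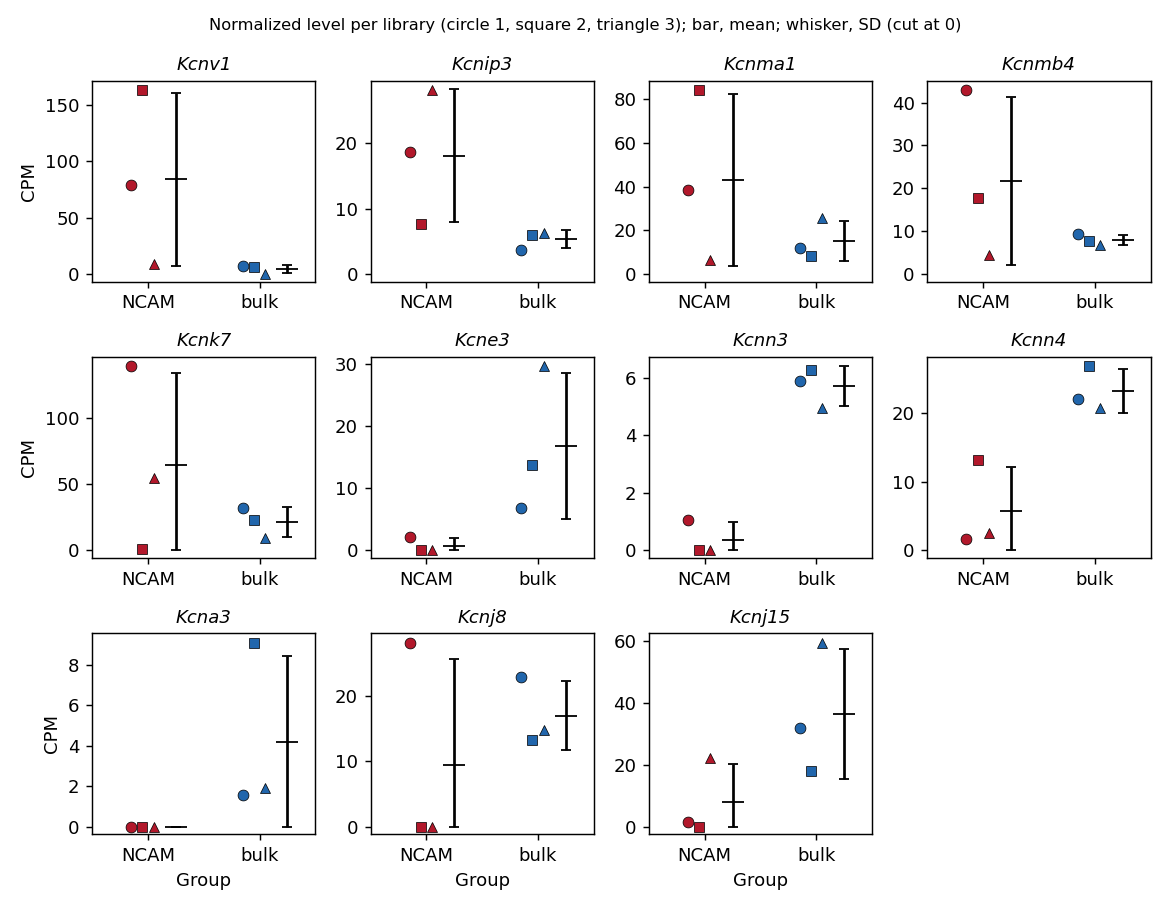
CPM (vertical axes, linear and set for each gene) of 11 Kcn genes in each library of the NCAM-enriched (red) and bulk skin (blue) groups. Symbols mark libraries 1 to 3, horizontal bars the mean and whiskers the SD, drawn no lower than 0. For Kcnv1 and Kcnip3 every red point lies above every blue point, and for Kcne3, Kcnn3, Kcnn4 and Kcna3 every red point lies below.

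A leak channel had the highest level per length of the detected Kcn genes. Kcnk7, a two-pore-domain subunit that forms no measurable current on its own, averaged 27.5 CPM per kilobase of exonic sequence over the 6 libraries, ahead of Kcnv1 at 9.62 and Kcnk1 at 9.37. Below Kcnk7 the order differed by group. In the NCAM-enriched group Kcnk7 averaged 41.3, Kcnv1 18.3 and Kcnk1 11.6 CPM per kilobase, and in bulk skin Kcnk7 averaged 13.6, Kcne3 9.42, Kcnk1 7.17, Kcnj8 6.67 and Kcnv1 0.959. In CPM, Kcnk7 had 139, 0.773 and 54.5 in the NCAM-enriched libraries and 31.7, 23.1 and 9.32 in bulk skin. NCAM-enriched library 2 was nearly empty and the other 2 were above every bulk skin library. The log2 fold change was 1.60 ± 1.19 (edgeR adjusted p = 0.531) and became 2.16 with an adjusted p of 0.0691 without library 2. Of the NCAM-enriched libraries, library 2 was also the lowest in suprabasal markers (14300 CPM, against 19300 and 37200 CPM). In bulk skin these markers were lower still (1570 to 1750 CPM), while Kcnk7 was at 9.32 to 31.7 CPM. The part of suprabasal cells in the Kcnk7 values was not tested.

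Kcnk1, the TWIK-1 leak channel, had 22.8, 53.3 and 1.42 CPM against 16.1, 13.8 and 18.1 CPM, and the groups overlapped. The bulk skin libraries were within a narrow range and the NCAM-enriched libraries lay on both sides of it. Its log2 fold change was 0.68 ± 1.10, and another transcript overlaps 8.01% of its exonic bases. Kcnk6, the related TWIK-2, had 23.4, 9.27 and 27.2 CPM against 3.73, 10.4 and 6.03 CPM. Its log2 fold change of 1.57 ± 0.95 was not called (edgeR adjusted p = 0.429). On the bulk side, Kcnk5, the alkaline-activated TASK-2, had 1.59, 0 and 2.55 CPM against 3.42, 12.1 and 6.31 CPM with no overlap. Kcnk2, the stretch-sensitive TREK-1, had 5.31, 0 and 3.97 CPM against 10.9, 2.81 and 13.7 CPM, and the groups overlapped. Neither was called (edgeR adjusted p = 0.410 and 0.619).

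Among the inward rectifiers, which pass potassium inward more easily than outward and keep resting voltage negative, none of the 4 tested was called. Kcnj8, a pore of channels closed by ATP, had 28.2, 0 and 0 CPM in the NCAM-enriched libraries and 23.0, 13.2 and 14.8 CPM in bulk skin. All its NCAM-side counts came from library 1, and without that library the log2 fold change went from -0.85 ± 1.73 to -8.79, still not called (edgeR adjusted p = 0.0756). Kcnj15, the Kir4.2 pore, had 1.59, 0 and 22.1 CPM against 32.0, 17.9 and 59.5 CPM. The groups overlapped through library 3, and without it edgeR called Kcnj15 lower (log2 fold change -5.35, adjusted p = 0.0432, against 0.448 with all libraries). Over all genes, that fit called 733 lower, against 204 with all libraries. Of 15 inward rectifiers, 5 had no count in any library.

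Kcnq1ot1, an antisense noncoding RNA from the imprinted Kcnq1 locus, had more counts than any channel gene. It had 148, 370 and 126 CPM in the NCAM-enriched libraries and 81.0, 122 and 235 CPM in bulk skin. The groups overlapped and the log2 fold change was 0.56 ± 0.55, the smallest standard error of the 29.

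Genes that act with potassium channels were read from 3 lists: 25 companion subunits and related channels, 22 sodium-potassium ATPase genes and 15 cation-chloride cotransporters and their kinases. Of their 11, 7 and 10 tested members, edgeR called 0 higher and 1 lower, and DESeq2 2 higher and 2 lower. That is 3.57% lower by edgeR, against 1.55% of all genes, and 7.14% in each direction by DESeq2, against 5.02% and 7.05%, and with 1 or 2 genes a count nothing is read from these shares. The median log2 fold changes of the lists were -0.11, -0.33 and 0.53. The gene called lower was Fxyd5, a FXYD protein that modulates the sodium pump and reduces cell adhesion. It had 25.5, 2.32 and 6.81 CPM in the NCAM-enriched libraries and 1360, 813 and 1230 CPM in bulk skin, and it fell by 6.60 ± 0.86 on the log2 scale (edgeR adjusted p = 0.0107). T and NK cell and myeloid markers differed in the same direction, and their part was not tested. The call was lost when any 1 bulk skin library was left out. Those fits called few genes at all, 0 to 1 higher and 13 to 21 lower, against 137 and 204 with all libraries.

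Slc12a2, the NKCC1 cotransporter that carries sodium, potassium and chloride into cells, had 292, 181 and 59.3 CPM against 26.4, 13.4 and 57.3 CPM. The groups did not overlap, but NCAM-enriched library 3 was close to the highest bulk skin library. DESeq2 called it higher (adjusted p = 0.0137) and edgeR did not (adjusted p = 0.0965). Dpp10, a companion subunit of Kv4 pores, had 31.9, 23.2 and 6.53 CPM against 3.73, 0.865 and 1.10 CPM, called by DESeq2 (adjusted p = 0.0151) and not by edgeR (0.156). Adam23, a surface protein that binds LGI proteins linked to Kv1 channels, had 1 count on the NCAM side against 127 on the bulk side. DESeq2 (adjusted p = 0.0101) and limma-voom (adjusted p = 0.0285) called Adam23 lower, and edgeR did not (adjusted p = 0.103). The pooled ratio was 74.0 (95% counting interval 13.1 to 2950). The ratio was 35.1 without NCAM-enriched library 3, and without library 2, which held the count, it was at least 19.9-fold lower. Slc12a7, the KCC4 potassium-chloride exporter, had 7.44, 1.55 and 4.82 CPM against 13.4, 37.2 and 25.2 CPM, with a log2 fold change of -2.43 ± 0.98 (edgeR adjusted p = 0.220).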

How the data were processed

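The authors deposited raw counts for each gene and did not normalize them. By their methods, adapters and abundant sequences were removed, reads were aligned to GRCm38 with STAR and counted with featureCounts. Their annotation release and strand option were not given in the sources used here. All 95 genes were found in GENCODE M21, which gave positions and exonic lengths. Counts were fitted for all genes with edgeR 4.0.16 in R 4.3.3 (quasi-likelihood test, TMM factors, filterByExpr on the groups), with DESeq2 1.42.0 and limma 3.58.1 (voom) as alternatives. Genes were called at a Benjamini-Hochberg adjusted p of at most 0.05. CPM use the TMM-scaled totals and the SE is derived from the F statistic. Counts are PCR copies without molecular identifiers, so the 95% intervals and the floor of 3 counts per group hold for counting error alone. The scripts were tested on simulated data. Samples were grouped by their labels. Replicate numbers were not treated as pairs.

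Named genes were the members called by edgeR or DESeq2, the detected member of each subfamily with the highest level per length, the 8 other detected members with the smallest edgeR p, and of each partner list the called genes and the 2 with the smallest p. Other genes, named with detection counts or said to be so, were chosen after their values were seen. Some genes are not reported here. The members and lists were chosen with earlier results of these data known. Figures were drawn with matplotlib 3.10.9.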

Additional observations from a re-analysis of the deposited data

How the results depend on the processing

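These results rest on few counts: the detected Kcn genes had a median of 88 over all libraries, and the NCAM-enriched libraries differed among themselves. Of the Kcn genes, edgeR called 0 higher and 0 lower. Higher calls became 2 with no count filter (769 higher and 741 lower of 27884 genes), 2 by DESeq2 and 1 by limma-voom, and lower calls 1 by DESeq2 and 1 by limma-voom. Leaving out single libraries gave 0 to 2 higher and 0 to 1 lower, and the nonzero values came without NCAM-enriched library 3, where 1099 genes were called higher and 733 lower. Partner genes called higher were 0 of 28 tested and became 2 with no filter and 2 by DESeq2 (7.14%, against 5.02% of all genes). Those called lower were 1 of 28 and became 2 by DESeq2 (7.14%, against 7.05%) and 2 by limma-voom (7.14%, against 6.45%). Without single libraries they were 0 to 2 in each direction. There were 2 higher without NCAM-enriched library 3, where 1099 of all 14962 genes tested were higher. There were 2 lower without NCAM-enriched library 2, where 592 of all 14384 genes tested were lower. There were 0 lower when any 1 bulk skin library was left out. The number of partner genes tested in these fits is not given here, so nothing is read from these counts. Over all genes, leaving out a bulk skin library left 0 to 1 called higher and 13 to 21 lower. The cause of these changes was not tested. Detected Kcn genes were 52, 34 with 5 counts in 3 libraries, 34 after thinning and 39 to 51 without single libraries. The fit with the replicate block called 0 Kcn genes higher, 0 lower, 0 partner genes higher and 1 lower (over all genes, 50 higher and 92 lower against 137 and 204), and deviations of libraries with the same number correlated at 0.0226, 0.00025 and -0.00436. Of 23 tested Kcn genes that the naming rule chose, 19 kept their direction in all 15 alternatives, and Kcng1, Kcnab2, Kcnk1 and Kcnq1ot1, called in none, did not. Removing the exonic length trend moved the median log2 fold change over all genes from -0.07 to 0.29, and Kcnq1ot1 to -0.35. The replicate block and limma-voom moved that median to -0.36 and -0.37. Count ratios without single libraries, given beside their genes, were added after seeing the data.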
